A study of Sus scrofa with 13 samples.

Results

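The proteasome is the large protease that degrades most ubiquitin-tagged protein of a cell, and in skeletal muscle it takes part in the continuous turnover of contractile protein. Its 20S core is a barrel made of alpha subunits (PSMA genes) in the outer rings and beta subunits (PSMB genes) in the inner rings, and only some beta subunits carry a cutting site. The 19S cap, with ATPase subunits (PSMC genes) and non-ATPase subunits (PSMD genes), binds the tagged protein, removes the tag and feeds the unfolded chain into the core. Interferon gamma induces alternative catalytic subunits (PSMB8, PSMB9) and the PA28 activator (PSME1, PSME2), PSME4 encodes the PA200 activator, and PSMG genes encode chaperones of core assembly.

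Every gene identifier whose symbol starts with PSMA, PSMB, PSMC, PSMD, PSME, PSMF or PSMG and a digit was taken, which gave 42 of the 25322 identifiers in the count tables and 40 symbols. PSMB8 and PSMB9 had 2 identifiers each, and PSMC3IP, a recombination factor, matched only by its name. PSMB2, PSMB3, PSMB5, PSMB10, PSMC4, PSMD9, PSMD10, PSMF1 and PSMG2 were matched to no identifier and were not analysed here. PSMB11, the core subunit of the thymus, had 0 counts in all 13 pigs, which allows up to 3 counts or 0.146 to 0.273 CPM in a pig (CPM, counts scaled to the library size). PSMA8, the core subunit of the testis, had 4 counts in 1 pig, and PSMC3IP had 0 to 6 counts. These 3 were too low to test, as was the second PSMB8 identifier within each breed, so that 38 identifiers were tested within a breed and 39 over all pigs.

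RNA was sequenced from the loin muscle (longissimus lumborum) of 13 female pigs, all 6 months old and of the sire breeds Hampshire and Pietrain. Within each breed the study picked pigs with a high or a low weight of the loin from a larger population. There were 3 Hampshire pigs of high loin weight (pigs 8, 9 and 10), 3 Hampshire pigs of low loin weight (pigs 1, 2 and 3), 4 Pietrain pigs of high loin weight (pigs 1, 2, 6 and 7) and 3 Pietrain pigs of low loin weight (pigs 3, 5 and 8). No pig was treated, the groups differ by selection on the trait, and any other difference between the breeds' libraries cannot be told apart from breed.

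The libraries held 11312755 to 20134612 counts per pig. Skeletal muscle markers were abundant in every pig, with 7 of 11 matched. They summed to 171230 to 247630 CPM in Hampshire high and 134070 to 204640 in Hampshire low. In Pietrain high they summed to 96409 to 164140 CPM and in Pietrain low to 113110 to 130800. In Hampshire high 2 of the 7 were called higher than in Hampshire low and 1 was called lower. The Hampshire high pigs stood apart from the others: their Spearman correlation over genes was 0.956 to 0.971 among themselves, 0.880 to 0.932 with the Hampshire low pigs and 0.759 to 0.914 with the Pietrain pigs. Markers of other cells moved with the groups too. The 14 matched leukocyte markers of 15 summed to 192 to 261 CPM in Hampshire high, 68.8 to 155 in Hampshire low, 28.4 to 78.6 in Pietrain high and 30.4 to 44.9 in Pietrain low, and 5 of the 14 were called higher in Hampshire high than low. The 5 matched fibroblast markers of 6 summed to 1867 to 4850 CPM in Hampshire high and 732 to 1573 in Hampshire low, with 3 called higher. Of all genes tested 12.0% were called higher in Hampshire high than low and 14.6% lower. Endothelial markers (5 of 7 matched) summed to 219.9 to 249.8 CPM against 150.2 to 196.3, adipocyte markers (2 of 5) to 6.74 to 29.0 against 1.61 to 5.201, and blood markers (3 of 4) overlapped at 82.4 to 239.6 against 45.4 to 175.2. No matched marker was at 0 throughout a group. The part of these cells in the results was not tested, and in whole tissue fewer cells of a type and less RNA per cell cannot be told apart.

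**Figure D1:**
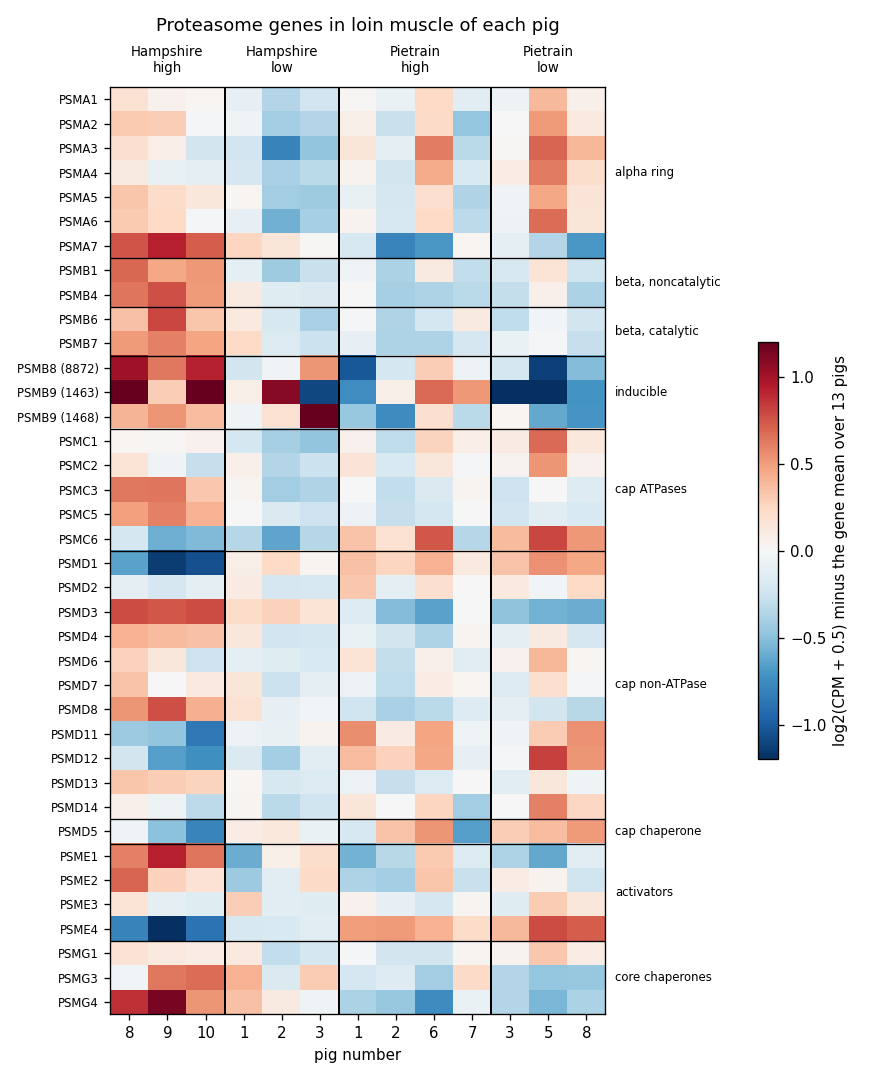
Heat map of 38 proteasome gene identifiers (rows, by role) in 13 pigs (columns, by group); colour is log2(CPM + 0.5) minus the gene's mean over the 13 pigs, cut at 1.2 in either direction. Core subunits are higher in the 3 Hampshire high pigs than in the 3 Hampshire low pigs, PSME4 and PSMD1 are lower there, and the Pietrain columns show no such division by loin weight.

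Between Hampshire pigs of high and low loin weight, 29 of the 38 proteasome genes tested had a log2 fold change above 0 and 9 had one below. Of these, 12 were called higher in the high group: PSMA7, PSMB1, PSMB4, PSMB6, PSMB7, PSMB8 (ENSSSCG00000028872), PSMC3, PSMC5, PSMD3, PSMD8, PSME1 and PSMG4. The 3 called lower were PSMD1, PSMD11 and PSME4. A call needed an adjusted p under 0.05 (quasi-likelihood test of edgeR, p adjusted by Benjamini-Hochberg over all genes) and a fold change of at least 1.2, and among all genes tested 12.0% were called higher and 14.6% lower. The median log2 fold change of the 38 was 0.44, against 0.03 over all genes, and it was 0.41 over the 35 left without PSMB8 and PSMB9. In 21 of the 38 all high pigs lay above all low pigs and in 3 they lay below, against 22.4% and 23.5% of all genes. The number of calls depended on single pigs: it was 15 with all 6 pigs, 3 without low pig 2, 4 without low pig 3, 5 without high pig 9 and 7 without high pig 10. Calls over all genes fell in these fits too, from 3256 of 12228 genes with all 6 pigs. Without low pigs 2 and 3 in turn, 2179 of 12498 and 1224 of 12492 genes were called. Without high pigs 9 and 10 in turn, 2091 of 12588 and 1760 of 12544 genes were called. The median over the members stayed between 0.36 and 0.42 when any 1 pig was left out.

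All 11 constitutive core subunits matched had a log2 fold change above 0, from 0.27 to 0.82 with a median of 0.52. In all 11 the high pigs lay above the low pigs, as they did in 22.4% of all genes. Of these, 5 passed the test, where 12.0% of all genes were called higher. The strongest by p was PSMB1 (ENSSSCG00000027257, on scaffold GL894396.1 from 29595 to 44520 of Sscrofa10.2), a beta subunit without a cutting site. It stood at 187, 159.9 and 166 CPM in high pigs 8, 9 and 10 and at 108, 86.1 and 96.5 in low pigs 1, 2 and 3, a log2 fold change of 0.82 ± 0.16 (SE; n = 3 and 3, adjusted p = 0.00944, edgeR). The groups did not overlap, and the call held without any 1 pig (adjusted p 0.0169 to 0.0485). PSMB4, the other matched beta subunit without a cutting site, had a log2 fold change of 0.71 ± 0.16 (adjusted p = 0.0162, edgeR), a call lost without low pig 2 (0.66, 0.0600) or low pig 3 (0.65, 0.0761).

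Both constitutive catalytic subunits that were matched were higher in Hampshire high pigs. PSMB6 (ENSSSCG00000017913, chromosome 12, 54317037 to 54319097), which cuts after acidic residues, had 202, 275 and 199.7 CPM in high pigs 8, 9 and 10 against 172, 138 and 121 in low pigs 1, 2 and 3. Its log2 fold change was 0.65 ± 0.21 (adjusted p = 0.0462, edgeR), and the lowest high pig was above the highest low pig. PSMB7 (ENSSSCG00000005590, chromosome 1, 298943393 to 299006601), which cuts after basic residues, had 159, 169 and 154 CPM against 131, 99.0 and 92.6, again without overlap (0.57 ± 0.18, adjusted p = 0.0464, edgeR). Both calls sat near the threshold, and each was lost when any Hampshire pig except low pig 1 was left out, with adjusted p up to 0.166 and 0.170.

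Of the alpha ring, which gates the entrance of the barrel, PSMA7 (ENSSSCG00000030630, chromosome 17, 69075553 to 69079393) was the member called. It had 146, 165 and 144 CPM in high pigs 8, 9 and 10 and 104, 95.6 and 87.4 in low pigs 1, 2 and 3. The groups were well apart, with a log2 fold change of 0.66 ± 0.16 (adjusted p = 0.0171, edgeR), and the call was lost without low pig 2 (0.65, adjusted p = 0.0562) or low pig 3 (0.59, adjusted p = 0.0805). The other alpha genes, PSMA1 to PSMA6, had log2 fold changes of 0.27 to 0.52 and adjusted p of 0.0624 to 0.207. PSMA3, for example, had 204, 188 and 153 CPM against 151, 102 and 128, so that the lowest high pig lay just above the highest low pig.

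Of 16 cap subunits 4 were called higher and 2 lower, with a median log2 fold change of 0.22, where 12.0% and 14.6% of all genes were called. The ATPases drive unfolding: PSMC3 (ENSSSCG00000013239) had 274, 277 and 221 CPM in high pigs 8, 9 and 10 against 181, 132 and 138 in low pigs 1, 2 and 3, and the groups did not overlap (0.77 ± 0.19, adjusted p = 0.0195, edgeR). This call was lost without high pig 9 (0.68, adjusted p = 0.0559), low pig 2 (0.67, 0.0699) or low pig 3 (0.70, 0.0860). PSMC5 was also called, at 0.64 ± 0.16 (adjusted p = 0.0209, edgeR), but not without high pig 9 or 10 or low pig 2 or 3 (0.0508 to 0.0929). The remaining 3 ATPases were not, and PSMC6 had a log2 fold change of -0.0042.

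Among the non-ATPase subunits, PSMD1 (ENSSSCG00000016272, chromosome 15, 145524631 to 145555101), a large scaffold to which ubiquitin receptors bind, changed most. It had 35.3, 24.8 and 26.3 CPM in high pigs 8, 9 and 10 and 58.0, 65.2 and 56.8 in low pigs 1, 2 and 3. All 3 high pigs lay far below the low pigs, with a log2 fold change of -1.06 ± 0.17 (adjusted p = 0.00525, edgeR), and the call held without any 1 pig (adjusted p 0.0054 to 0.0261). PSMD11, a structural subunit of the lid, fell from 135, 133 and 145 CPM to 104, 101 and 77.6 (-0.55 ± 0.16, adjusted p = 0.0374). PSMD3 and PSMD8, also of the lid, were higher, at 0.55 ± 0.14 (adjusted p = 0.0254) and 0.56 ± 0.17 (adjusted p = 0.0392). These calls were fragile: PSMD3 was lost without any 1 pig (adjusted p 0.0522 to 0.103), PSMD8 without any but low pig 1 (0.0659 to 0.137) and PSMD11 without any but high pig 8 (0.0514 to 0.124). PSMD2, the other large scaffold, was at -0.055 ± 0.16 with adjusted p = 0.827, and the 2 scaffold genes thus had unlike values. The chaperone of cap assembly PSMD5 had 7.97, 5.73 and 4.54 CPM against 8.82, 9.04 and 7.78, with high pig 8 inside the low range (-0.50 ± 0.24, adjusted p = 0.147). Without that pig it was called (-0.77, adjusted p = 0.0449).

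**Figure D2:**
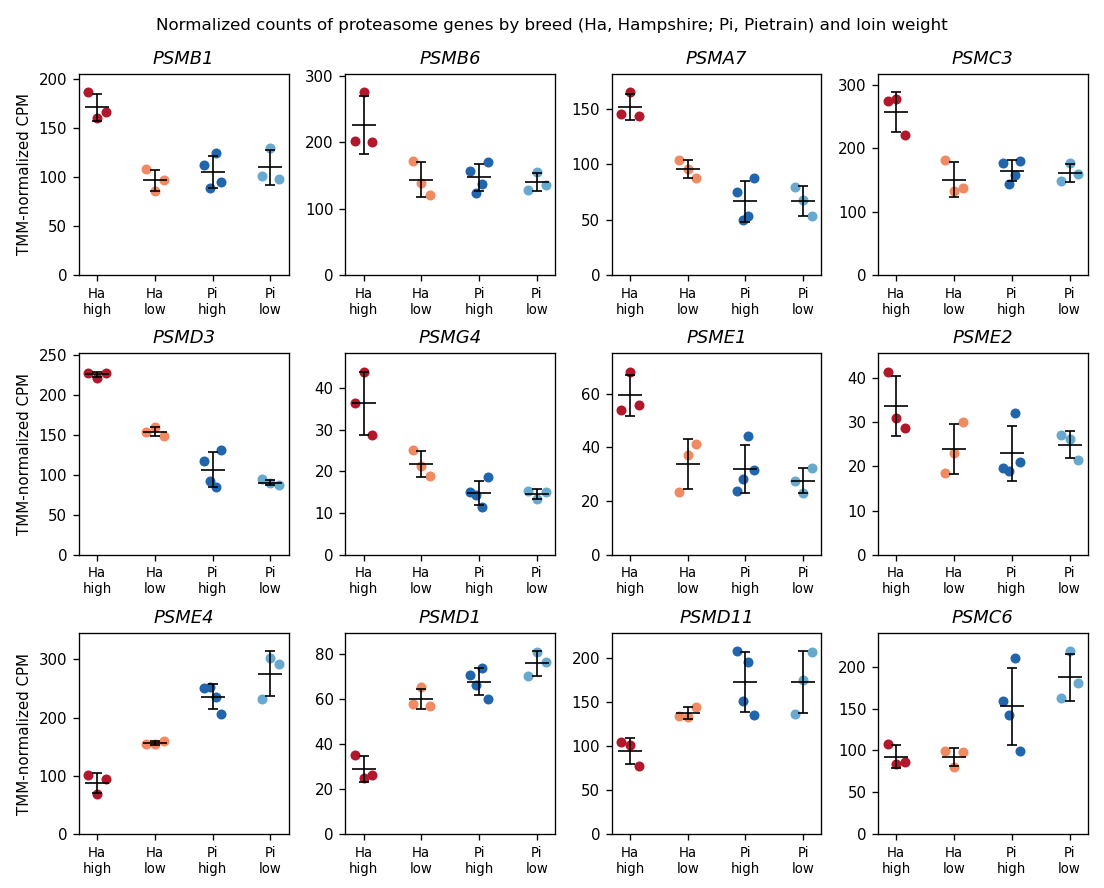
Normalized counts (CPM) of 12 proteasome genes in each pig, by breed and loin weight (n = 3, 3, 4 and 3); points are pigs, the horizontal mark is the group mean and the bar is 1 SD on either side. PSMB1, PSMB6, PSMA7, PSMC3, PSMD3, PSMG4 and PSME1 are highest in Hampshire high, while PSME4, PSMD1 and PSMD11 are lowest there and PSMC6 is lower in both Hampshire groups than in most Pietrain pigs.

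Of the 4 activators of the core, 1 was called higher and 1 lower, where 12.0% and 14.6% of all genes were called. Neither call held when a trend of counts with gene length was removed. PSME4 (ENSSSCG00000008412, chromosome 3, 92361674 to 92489028), which encodes the PA200 cap that opens the core without ATP, had 101, 68.3 and 95.04 CPM in Hampshire high pigs 8, 9 and 10. In low pigs 1, 2 and 3 it had 154, 155 and 160.2 CPM, and the low pigs were thus close together and all above the high pigs. The log2 fold change was -0.83 ± 0.18 (adjusted p = 0.0135, edgeR), and the call was lost without low pig 3 (-0.82, adjusted p = 0.0544). PSME1 (ENSSSCG00000002006, chromosome 7, 80433126 to 80435858), the alpha subunit of PA28, went the other way: 54.1, 68.3 and 55.7 CPM in the high pigs against 23.3, 37.2 and 41.1 in the low pigs, without overlap (0.81 ± 0.22, adjusted p = 0.0274). That call was lost without high pig 9 (0.67, adjusted p = 0.0987), high pig 10 (0.85, 0.0633), low pig 1 (0.56, 0.0619) or low pig 2 (0.88, 0.0522). PSME2, its partner in the PA28 ring, overlapped between groups at 41.5, 31.0 and 28.7 CPM against 18.6, 23.1 and 30.0 (0.49 ± 0.21, adjusted p = 0.114). PSME3, the nuclear PA28 gamma, had 24.5, 19.999 and 19.7 CPM against 26.9, 19.8 and 19.6, and the difference of -0.052 ± 0.19 was within the spread.

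The core assembly chaperone PSMG4 (ENSSSCG00000001005) had 36.4, 43.9 and 28.7 CPM in Hampshire high pigs 8, 9 and 10 against 25.2, 21.3 and 19.0 in low pigs 1, 2 and 3. High pigs were all above low pigs, by a log2 fold change of 0.73 ± 0.20 (adjusted p = 0.0284, edgeR). The call was lost without high pig 8 (0.69, adjusted p = 0.0588), high pig 9 (0.54, 0.0893), low pig 2 (0.70, 0.0758) or low pig 3 (0.63, 0.116). PSMG1 and PSMG3 were at 0.24 and 0.27 and did not pass.

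The inducible catalytic subunits were counted on 2 identifiers each, which may share reads, so each value is uncertain. On chromosome 7 PSMB8 (ENSSSCG00000028872, 29425067 to 29428872) had 18.7, 14.3 and 17.5 CPM in Hampshire high pigs 8, 9 and 10 and 7.65, 8.75 and 13.2 in low pigs 1, 2 and 3. The groups did not overlap and the gene was called (0.77 ± 0.23, adjusted p = 0.0398, edgeR). The other identifier, ENSSSCG00000026951, had counts in 4 of the 13 pigs: 121 in Hampshire low pig 2, 55 in Hampshire low pig 3, 23 in Pietrain high pig 6 and 20 in Pietrain low pig 8. It was at 0 in the remaining 9, all 3 Hampshire high pigs among them. With both identifiers summed the PSMB8 difference was 0.36 and was no longer called (adjusted p = 0.354), and the call on the first identifier alone was lost without any Hampshire pig except low pig 3, with adjusted p of 0.0597 to 0.128.

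PSMB9, next to PSMB8 on chromosome 7, did not pass on either identifier. ENSSSCG00000001468 (29437937 to 29444130) had 4.22, 4.64 and 4.09 CPM in Hampshire high pigs 8, 9 and 10 and 2.94, 3.55 and 7.64 in low pigs 1, 2 and 3 (-0.12 ± 0.36, adjusted p = 0.832). Low pig 3 alone was above the high pigs, and without it the difference was 0.40 (adjusted p = 0.370). ENSSSCG00000001463 had 5.92, 1.73 and 4.60 CPM against 1.41, 3.35 and 0.35 (1.23 ± 0.67, adjusted p = 0.197). Low pig 3 thus held the highest value of one identifier and the lowest of the other, and the sum of both gave 0.39 (adjusted p = 0.307).

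As a measure that does not rest on library size, the counts of PSMB9 or PSMB8, summed over identifiers, were divided by those of PSMB6 in the same pig. PSMB6 is the subunit that PSMB9 replaces, while PSMB8 replaces PSMB5, which was not matched. PSMB6 was itself called higher in Hampshire high than in Hampshire low and Pietrain high pigs. A difference in a ratio there can thus come from either gene. In Hampshire high pigs 8, 9 and 10 the log2 ratio of PSMB9 to PSMB6 was -4.31, -5.43 and -4.52, and in low pigs 1, 2 and 3 it was -5.29, -4.32 and -3.91. The ranges overlapped, with a difference of -0.24 (exact permutation test, two-sided, p = 0.6). In Pietrain high pigs it was -5.85, -5.34, -4.51 and -5.25 in pigs 1, 2, 6 and 7, and in Pietrain low pigs 3, 5 and 8 it was -5.30, -6.38 and -5.87, a difference of 0.61 (exact p = 0.229). At low loin weight the 3 Hampshire pigs were all above the 3 Pietrain pigs, by 1.34, and the exact p of 0.1 is the smallest that 3 against 3 pigs can give. At high loin weight the breeds overlapped, with a difference of 0.49 (exact p = 0.4). For PSMB8 to PSMB6 the differences were -0.22 in Hampshire, 0.27 in Pietrain, and 1.00 and 0.50 between breeds at low and high loin weight, with exact p of 0.3 to 0.7. After adjustment over the 8 tests the p-values were 0.64 to 0.7, and with 3 against 4 pigs the smallest exact p is 0.0571, so that none of these tests could reach 0.05.

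Between Pietrain pigs of high and low loin weight no proteasome gene was called in edgeR's test, nor any other gene (0% higher and 0% lower). At an unadjusted p under 0.05 there was 1 of 38 members, PSMB9 on ENSSSCG00000001463, against 3.30% of all genes, and DESeq2 called 0 members and 1 gene in all. That identifier had 0.58, 1.40, 2.40 and 2.10 CPM in high pigs 1, 2, 6 and 7 and 0.08, 0 and 0.61 in low pigs 3, 5 and 8, from at most 42 counts, with an adjusted p of 0.939. The members' median log2 fold change was -0.08, against 0.02 over all genes, and no member lay higher in all high pigs than in all low pigs, while 1 lay lower, against 2.08% and 2.51% of all genes. For the 35 members other than PSMB8 and PSMB9 the log2 fold changes ran from -0.31 to 0.38.

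The core subunits that separated the Hampshire groups overlapped in Pietrain. PSMB1 had 112, 89.2, 125 and 94.6 CPM in Pietrain high pigs 1, 2, 6 and 7 and 101, 130.04 and 98.3 in low pigs 3, 5 and 8 (-0.027 ± 0.19, edgeR). PSMA7 had 75.4, 49.7, 53.1 and 87.7 against 79.5, 67.8 and 53.1 (0.028 ± 0.25). PSMB6 had 157, 123, 137 and 170.4 against 128, 155 and 136 (0.11 ± 0.18), and PSMB7 103, 85.9, 85.7 and 96.3 against 105, 110.2 and 91.6 (-0.10 ± 0.17). In each case the ranges of the high and low pigs overlapped. Low pig 5 was highest of the 7 for 6 of the 7 alpha genes and for PSMB1, PSMB4 and PSMB7, an order seen after the values were known.

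PSMD1 and PSME4 also overlapped in Pietrain. PSMD1 had 70.8, 66.4, 73.9 and 60.0 CPM in high pigs 1, 2, 6 and 7 and 70.0, 81.0 and 76.4 in low pigs 3, 5 and 8 (-0.13 ± 0.16). PSME4 had 250.4, 252, 235 and 206 against 231, 303 and 293 (-0.19 ± 0.17). For PA28, PSME1 had 23.7, 28.1, 44.2 and 31.5 against 27.3, 23.0 and 32.3, and PSME2 had 19.6, 19.0, 32.2 and 21.1 against 27.1, 26.2 and 21.4. High pig 6 was highest for both PA28 subunits. PSMC3 had 176, 144, 157 and 180.2 against 148, 176 and 159, PSMG4 14.98, 14.3, 11.4 and 18.5 against 15.4, 13.3 and 14.99, and PSMB8 on chromosome 7 had 4.20, 7.69, 11.2 and 8.55 against 7.72, 3.88 and 6.12. None of these separated the groups.

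**Figure D3:**
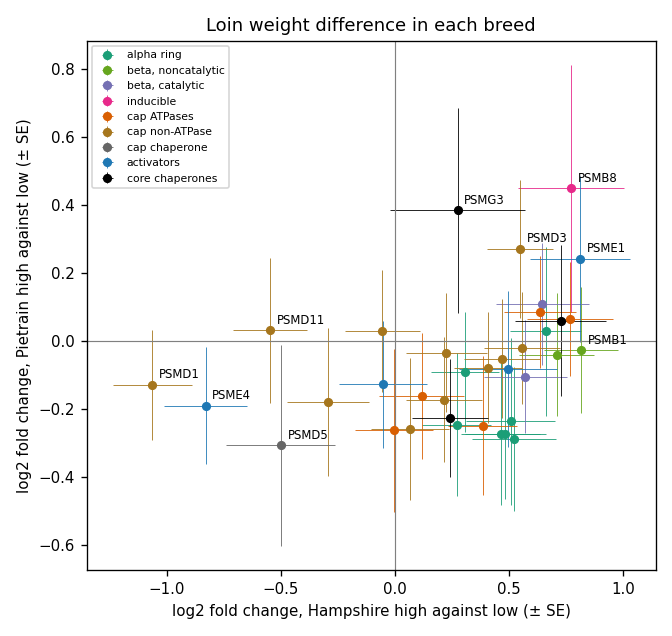
Log2 fold change of high against low loin weight in Hampshire (x axis, 3 against 3 pigs) and in Pietrain (y axis, 4 against 3 pigs) for each proteasome gene tested, PSMB9 left out; lines are 1 SE on either side and colour marks the role. Hampshire values run from -1.06 for PSMD1 to 0.82 for PSMB1, while in Pietrain these lie near 0.

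The difference between the loin weight effects of the breeds was tested itself, as an interaction over all 13 pigs. It was called for 2 of 39 members, 1 in each direction, against 1.68% of all genes with the higher effect in Hampshire and 4.22% with the lower. PSMB1 had an effect 0.88 ± 0.25 larger in Hampshire (adjusted p = 0.0494, edgeR) and PSMD1 one of -0.89 ± 0.23 (adjusted p = 0.0391). All 11 constitutive core subunits had a difference above 0, from 0.44 to 0.88, but the other 10 did not pass, so that among them PSMB1 alone was called. With the length trend removed PSMB1 was not called (0.82, adjusted p = 0.0694), while PSMA5 (1.09, 0.0219) and PSMB7 (0.98, 0.0425) were. The PSMB1 call was lost when any pig but Pietrain high pig 6 was left out (adjusted p 0.0592 to 0.141). The PSMD1 call was lost without Hampshire high pig 9 (-0.86, adjusted p = 0.0675) or 10 (-0.89, 0.0669), Hampshire low pig 2 (-0.89, 0.0665) or 3 (-0.99, 0.0569), and Pietrain low pig 3 (-0.91, 0.0504) or 8 (-0.96, 0.0594). Counted over all members, DESeq2 called 8, 7 of them higher. Over all genes DESeq2 called 1224 of 12831, 447 of them higher.

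Between the breeds at low loin weight, 7 of 39 members were called, 1 higher in Hampshire (7.84% of all genes) and 6 lower (10.1% of all genes). PSMD3 (ENSSSCG00000017489, chromosome 12, 22802738 to 22818570) had 154, 159.97 and 149 CPM in Hampshire low pigs 1, 2 and 3 and 94.4, 89.4 and 87.6 in Pietrain low pigs 3, 5 and 8. The ranges were far apart (0.77 ± 0.18, adjusted p = 0.0160, edgeR). Next by p among the genes higher in Hampshire were PSMB9 on ENSSSCG00000001463 (2.79 ± 0.96, adjusted p = 0.0563) and PSMG4 (0.58 ± 0.21, adjusted p = 0.0684), which did not pass. PSME4 was lower in Hampshire, where its 154 to 160.2 CPM lay under the Pietrain low values given above (-0.82 ± 0.18, adjusted p = 0.0151).

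The remaining 5 lower in Hampshire at low loin weight were the ATPases PSMC6 and PSMC1, the alpha genes PSMA3 and PSMA4, and PSMD12 of the lid. PSMC6 (ENSSSCG00000005038, chromosome 1, 202599689 to 202625517) had 98.9, 80.3 and 98.7 CPM in Hampshire low pigs 1, 2 and 3 and 163, 219 and 180.2 in Pietrain low pigs 3, 5 and 8, a clear gap (-1.02 ± 0.24, adjusted p = 0.0179, edgeR). PSMC1 had 105, 92.3 and 87.5 against 130.00, 195 and 132 (-0.68 ± 0.19, adjusted p = 0.0304). For the other 3 the log2 fold changes were -0.88, -0.63 and -0.72. Here too the calls rested on few pigs: 0 members were called without Hampshire low pig 2, Pietrain low pig 5 or Pietrain low pig 8, and 1 without Hampshire low pig 3. Over all genes the calls fell likewise, from 2300 of 12831 with all pigs. In these fits, in the same order, 109 of 13172, 163 of 13239, 111 of 13176 and 501 of 13262 genes were called.

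Between the breeds at high loin weight, 19 of 39 members were called, 14 higher in Hampshire (22.6% of all genes) and 5 lower (24.2% of all genes). This comparison shares its Hampshire pigs with the Hampshire comparison, as the one at low loin weight does. The 3 strongest by p that were higher in Hampshire were PSMD3, PSMG4 and PSMD8. PSMD3 had 228, 222 and 228 CPM in Hampshire high pigs 8, 9 and 10 against 118, 91.9, 84.4 and 132 in Pietrain high pigs 1, 2, 6 and 7 (1.09 ± 0.16, adjusted p = 0.000166, edgeR). PSMD8 had 143, 169 and 133 against 83.7, 75.4, 79.0 and 88.5 (0.86 ± 0.15, adjusted p = 0.00041), and PSMG4 differed by 1.29 ± 0.20 (adjusted p = 0.000191). In all 3 every Hampshire pig was above every Pietrain pig. They were picked by p in these pigs, so this separation is no separate support. All 4 matched constitutive beta subunits were among the 14, at 0.62 to 0.92, and of the alpha ring PSMA7 was (1.19 ± 0.21). With the length trend removed PSMB6 (0.025, adjusted p = 0.911) and PSMB4 (0.32, 0.122) were not called and PSMA5 was (0.85, 0.0012).

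The 5 lower in Hampshire were PSME4, PSMD1, PSMD11, PSMD12 and PSMC6. PSME4 differed by -1.42 ± 0.18 (adjusted p = 4.37e-05, edgeR) and PSMD1 by -1.23 ± 0.16 (adjusted p = 7.91e-05), with every Hampshire pig below every Pietrain pig in the values above. Both were likewise picked by p in the same pigs. PSMD11 (ENSSSCG00000017731, chromosome 12, 44259356 to 44287880) had 104, 101 and 77.6 CPM in the Hampshire pigs against 208, 152, 196 and 136 in Pietrain high pigs 1, 2, 6 and 7 (-0.87 ± 0.20, adjusted p = 0.00281). PSMC6 and PSMD12 were at -0.72 and -0.79. Leaving out any 1 pig gave 16 to 21 calls among the members and 4640 to 6288 over all genes.

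**Figure D4:**
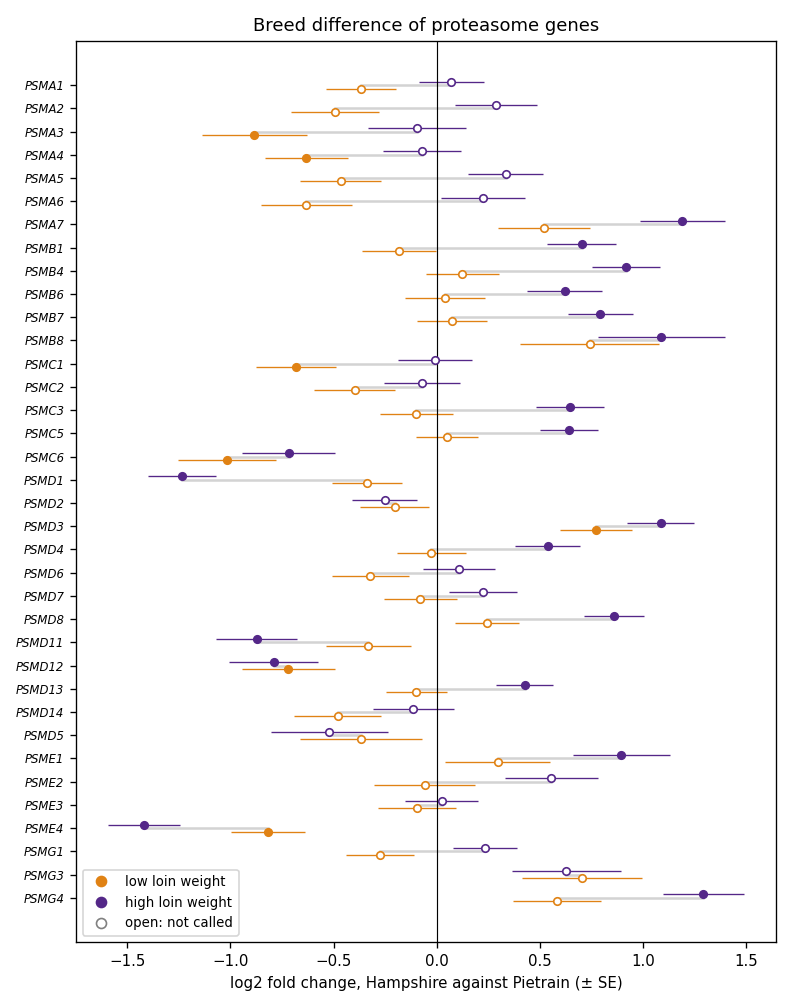
Log2 fold change of Hampshire against Pietrain with 1 SE, at low (orange, 3 against 3 pigs) and high loin weight (purple, 3 against 4 pigs), for each proteasome gene tested, PSMB9 and the second PSMB8 identifier left out; filled points were called. PSME4 and PSMC6 are lower and PSMD3 is higher in Hampshire at both loin weights, while PSMD1 and the beta subunits are called at high loin weight.

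The members' differences went with gene length, counted in bases from the start to the end of the gene, in 4 of the 5 comparisons. Over the 37 members with a position the Spearman correlation of the Hampshire log2 fold change with length was -0.44, against -0.39 over 9945 genes, a description over genes of the same libraries. It was -0.61 against -0.09 in Pietrain, -0.68 against -0.21 between breeds at low loin weight and -0.62 against -0.39 at high loin weight. For the interaction it was weaker in the members than over all genes, at -0.12 against -0.34. In Hampshire the 11 members over 20 kb had a median log2 fold change of 0.06 and the 26 up to 20 kb one of 0.47. PSME4 is the longest member (127355 bases) and PSMG3 and PSMB6 are the shortest (1524 and 2061 bases). The cause of the relation was not tested.

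When a trend of counts with length was removed from each library, 7 members were called in Hampshire, 6 higher and 1 lower. Calls over all 12228 genes fell too, from 1468 higher and 1788 lower to 978 and 1417. The members called were PSMA3, PSMA5, PSMA6, PSMB1, PSMB7 and PSMD3, which were higher, and PSMD1, which was lower at -0.93 (adjusted p = 0.00947, edgeR). PSMB1 was at 0.76 (adjusted p = 0.0123) and PSMB7, a long gene of 63209 bases, at 0.91 (adjusted p = 0.0123). Calls were lost for PSME4 (-0.45, adjusted p = 0.0812), PSMD11 (-0.43, 0.0867), PSME1 (0.40, 0.230), PSMA7 (0.28, 0.176), PSMB6 (0.26, 0.312), PSMC3 (0.53, 0.0619), PSMG4 (0.48, 0.101) and PSMB8 on chromosome 7 (0.38, 0.297), and also for PSMB4, PSMC5 and PSMD8. All 11 constitutive core subunits still had a log2 fold change above 0. At high loin weight the split of the breed calls moved from 14 higher and 5 lower to 7 and 7. Over all 12831 genes that split moved from 2896 and 3105 to 2564 and 2846.

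**Figure D5:**
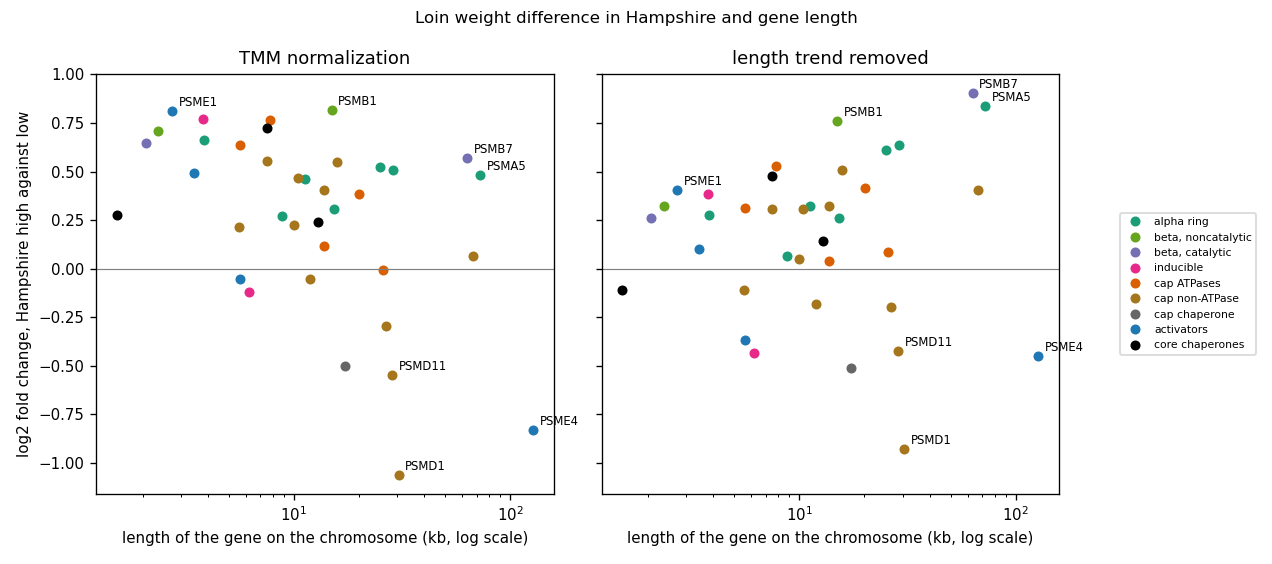
Hampshire log2 fold change of high against low loin weight for 37 proteasome genes against gene length in kb on a log axis, with TMM normalization (left) and after a trend of counts with length was removed from each library (right); colour marks the role. PSME4, the longest gene, moves from -0.83 to -0.45 and PSME1, a short one, from 0.81 to 0.40, whereas PSMD1 and PSMB1 stay at -0.93 and 0.76.

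Genes that work with the proteasome were read from lists in the same Hampshire comparison, where 12.0% of all genes were called higher and 14.6% lower, and nothing particular to a list is read from such counts. Of 14 tested partners and transcription regulators 1 was higher and 3 were lower, with a median log2 fold change of -0.20. NFE2L1, the transcription factor that induces proteasome genes when proteasome activity drops, had 18.3 to 25.3 CPM in the 3 high pigs and 52.8 to 58.9 in the 3 low pigs (-1.30 ± 0.17, adjusted p = 0.00276, edgeR). The ubiquitin ligase UBE3C, which binds the cap, had 6.82 to 9.67 against 18.6 to 20.2 (-1.31 ± 0.19, adjusted p = 0.00334), and NGLY1, the deglycosylase that processes NFE2L1, 15.2 to 17.4 against 23.3 to 30.1 (-0.77 ± 0.17, adjusted p = 0.0132). None of these ranges overlapped. The NGLY1 call was lost without high pig 10 (-0.74, adjusted p = 0.0518) and with the length trend removed (-0.45, adjusted p = 0.0829). In Pietrain NFE2L1 was at 0.29 and UBE3C at 0.30, and the differences between breeds were called (-1.55, adjusted p = 0.00497, and -1.57, adjusted p = 0.0118).

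Of 7 genes on the list of muscle E3 ligases, 3 were called lower in Hampshire high pigs and none was called higher, with a median of -0.66. Of all genes 14.6% were called lower and 12.0% higher. E3 ligases tag protein with ubiquitin, and not every gene on the list is particular to muscle protein. ITCH had 7.29 to 11.5 CPM against 25.1 to 32.1 (-1.68 ± 0.21, adjusted p = 0.00227, edgeR), FBXO40 31.0 to 68.3 against 114 to 157 (-1.57 ± 0.28, adjusted p = 0.00699) and FBXO32, the atrophy ligase atrogin-1, 12.73 to 24.8 against 37.3 to 56.2 (-1.26 ± 0.26, adjusted p = 0.0104). All 3 separated the groups and held without any 1 pig, while FBXO32 was not called when all 13 pigs were fitted together (-1.26, adjusted p = 0.0977). In Pietrain FBXO32 ran the other way, with 17.6 to 113 CPM in high pigs and 15.4 to 25.3 in low pigs, but was not called (1.44 ± 0.55, adjusted p = 0.939). The difference between breeds was called for ITCH, FBXO40 and FBXO32. TRIM63, the atrophy ligase MuRF1, was at -0.08 in Hampshire.

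Of 6 genes for ubiquitin and its E1 enzymes, 2 were called higher in Hampshire high pigs and none was called lower, although 1 had all high pigs below all low pigs. Of all genes 12.0% were called higher and 14.6% lower, and 23.5% had all high pigs below all low pigs. RPS27A, from which ubiquitin is made, had 577 to 829 CPM in the 3 high pigs and 292 to 420.4 in the 3 low pigs (1.02 ± 0.22, adjusted p = 0.0117, edgeR). The groups did not overlap, and the call was lost without low pig 3 (0.95, adjusted p = 0.0589). Of 8 genes of the p97 segregase, which pulls tagged protein out of complexes, the cofactors UBXN1 (1.03 ± 0.20, adjusted p = 0.00937), UBXN6 (0.71 ± 0.21, adjusted p = 0.0382) and NSFL1C (0.49 ± 0.14, adjusted p = 0.0330) were higher and the list's median was -0.03. NSFL1C was lost without any 1 pig (adjusted p 0.0667 to 0.124), and UBXN6 without any but high pig 8 (0.0656 to 0.143) and with the length trend removed (0.0629). PAAF1, a chaperone of the cap, was at 0.67 (adjusted p = 0.0742).

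Interferon and antigen processing genes, which share inducers with PSMB8, PSMB9 and PA28, were mixed: 1 of 15 identifiers was higher and 3 were lower, with a median of 0.00. Of all genes 12.0% were called higher and 14.6% lower. SLA-DRA, a class II antigen gene, was higher at 134 to 225 CPM in the 3 high pigs against 75.9 to 107 in the 3 low pigs (0.94 ± 0.22, adjusted p = 0.0182, edgeR), a call lost without high pig 8 (0.74, adjusted p = 0.0584), high pig 10 (0.89, 0.0563), low pig 1 (0.75, 0.0631) or low pig 3 (1.00, 0.0578). TAP1, the peptide transporter whose gene lies by PSMB9, was lower on ENSSSCG00000025618, with 0 to 5 counts in high pigs against 98 to 167 in low pigs (adjusted p = 0.00344), and was at 0.03 on ENSSSCG00000020893. Genes with 2 identifiers may split their reads, so TAP1 is uncertain. ERAP1, which trims peptides, was lower with overlapping ranges of 3.52 to 6.73 against 6.67 to 11.6 CPM (-1.02 ± 0.31, adjusted p = 0.0392), and IRF1 was at 0.00.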

How the data were processed

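Total RNA was made into TruSeq RNA v2 libraries, which do not mark strand, and read single-end by the authors. The deposited values are raw counts per Ensembl gene, one column per pig, on Sscrofa10.2. The submitters' processing notes name FastQC, STAR, RSEM and DESeq2, while the counting mode and the annotation release are not given in the sources used here. How the technical repeats were merged is not stated. Reads from a gene and its antisense partner cannot be told apart. The deposited tables also hold the authors' own comparisons, which were not used apart from symbols and positions, and 0 columns of per-sample values were left out. Symbols came from the deposited tables (7066 identifiers) or from a reference name table (6102), and 32 and 10 of the members were named so.

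Counts were tested in edgeR 4.0.16 (R 4.3.3; filterByExpr by group, TMM, quasi-likelihood F test), within each breed for loin weight and over 13 pigs for breeds and the interaction; the interaction call needed no fold change. SE is the log2 fold change over the root of F. CPM are TMM-normalized over all pigs, and folds come from the fits. Levels were not compared between genes, since transcript lengths were not used. Ratios used a pseudocount of 0.5 and exact permutation tests. Scripts were tested on simulated data. All pairs of pigs within a group differed by more than sampling noise. The depth of 11312755 to 20134612 counts sets the counting error, and limits for a count of 0 cover counting error only.

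Members and lists were chosen with earlier results of these data known. Named with values in every pig were the catalytic subunits, the PSME genes and the member with the smallest Hampshire p in each role; in breed comparisons the 3 with the smallest p in each direction; and of each pathway list up to 3 called genes, of which some are not reported here. Genes named by p were picked in the same pigs, so groups without overlap are no separate support for them. PSMF1, PSMB5 and PSMB10 fell under the rule but were not matched, and the planned ratios that need them were not computed. PSMB4, PSMC5, PSMD2, PSMG1, PSMG3, PSMC6 in Hampshire, PSMD8, PSMA3, ERAP1, TRIM63, IRF1 and PAAF1 were added after their values were seen. Alternatives were DESeq2 1.42.0, its size factors, other filters, a removed length trend (lowess per library on the length of the gene), other fits and leaving out each pig. Summing identifiers and the PSMB8 ratio were chosen after seeing the data.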

Additional observations from a re-analysis of the deposited data

Results flagged for a closer look

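PSME2 stood at 32.2 CPM in Pietrain high pig 6, above the other 3 pigs of its group at 19.0 to 21.1 CPM by a gap that exceeds Dixon's 95% value for 4 samples, which chance gives in about 1 of 20 groups. The same pig was highest of its group for PSME1, at 44.2 CPM. Every member named by the rule was checked so in this group, and PSME2 alone was flagged. With so many genes checked, a flag of this kind can come by chance.

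Of 39 members, 2 had a loin weight effect that differed between the breeds in the test of the difference itself, 1 each way. Of all genes 1.68% were called with the higher effect in Hampshire and 4.22% with the lower. PSMD1 had an effect of -0.89 (log2) in Hampshire relative to Pietrain (adjusted p = 0.0391, edgeR), and PSMB1 one of 0.88 (adjusted p = 0.0494, edgeR). Both calls were lost when single pigs were left out, that of PSMB1 for 12 of the 13 pigs and that of PSMD1 for 6. With the length trend removed PSMB1 was not called (0.82, adjusted p = 0.0694, edgeR) and PSMD1 was (-0.82, adjusted p = 0.0423, edgeR).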

How the results depend on the processing

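In Hampshire the 15 calls were 7 with the length trend removed and 3 to 15 when 1 pig was left out. The other settings gave 11 (no filter on low counts, 7 higher and 4 lower) to 17 (DESeq2). Over all genes the 3256 calls in Hampshire were 2395 with the length trend removed and 1224 to 3049 when 1 pig was left out. They were 2970 with no filter and 3446 with DESeq2. The interaction had 8 calls with DESeq2, 1 with no filter and 0 to 2 when 1 pig was left out. Over all genes it had 1224, 626 and 379 to 1052 in these settings. At low loin weight the breed difference had 0 to 10 calls, and at high loin weight 16 to 21, when 1 pig was left out. Over all genes these were 109 to 3091 and 4640 to 6288. Pietrain had 0 calls under every setting run. The high minus low difference in the log2 ratio of PSMB8 to PSMB6 in Hampshire was 0.15 with the identifier on chromosome 7 alone, and -0.71 to 0.12 when 1 pig was left out. That of PSMB9 to PSMB6 ran from -0.64 to 0.095 in Hampshire, and PSMB8 to PSMB6 from -0.13 to 0.60 in Pietrain. In single genes, PSMB9 (ENSSSCG00000001468) in Hampshire was 0.39 with identifiers summed and -0.41 to 0.40 when 1 pig was left out, and PSME3 ran from -0.19 to 0.075. The causes were not tested. No paired analysis was possible because each pig is in 1 group, and the groups compared share fewer than 2 pig numbers, which name different animals. PSMB9, PSMB8 and PSMG3 have few counts, which limits their precision.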
